A study of Mus musculus with 2 samples.

Results

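The genes described here encode Rab GTPases, SNARE proteins and the factors that act with them in secretion. They were chosen by gene symbol: numbered Rab, Stx, Vamp, Snap, Stxbp, Syt, Sytl and Unc13 genes. The rule found 113 genes among 19505 genes with a probe set, of which 56 were Rab genes, 25 belonged to the SNARE families Stx, Vamp and Snap, and the others were Stxbp, Syt, Sytl and Unc13 genes. Cultured mouse CD8 T cells from spleen and lymph node were profiled on Affymetrix microarrays, with 1 array for the Tc1 culture and 1 for the Tc9 culture, in search of genes high in Tc9 cells. Both cultures were activated through CD3 and CD28, polarized for 3 days and then held for 2 days in medium with human IL-2 at 10 ng/mL, so that RNA was taken at day 5. Polarization of the Tc9 culture used IL-4 at 10 ng/mL, TGF-beta at 1 ng/mL and an antibody against interferon gamma at 20 µg/mL. The Tc1 culture was polarized with human IL-2 at 10 ng/mL. The labels name no mouse strain or age and do not say whether cells of several mice were pooled. The source name of the Tc9 sample reads Tc1, and the sample was placed by its title. A single array per group allows no test and no estimate of replicate error, so every difference below describes this pair of arrays only.

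Rab GTPases switch between a GTP-bound form on membranes and a GDP-bound form in the cytosol, and each marks a step of vesicle traffic. SNARE proteins on a vesicle and on its target membrane zip together and fuse the membranes, helped by Munc18 proteins (Stxbp genes) and Munc13 proteins (Unc13 genes), with several synaptotagmins (Syt genes) as calcium sensors. In killer T cells, RAB27A, Munc13-4 (Unc13d) and syntaxin 11 (Stx11) are needed to dock, prime and fuse the lytic granules that hold perforin and granzymes, and their loss causes familial haemophagocytic disease.

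Values are log2 probe set signals, and differences are log2 Tc9 minus log2 Tc1. The detection threshold was a log2 signal of 6.43, the median over genes and arrays together, which the higher of a gene's signals had to reach, and 75 of the 113 members (66.4%) did so, against 52.0% of all genes. Signals are compared between arrays within a gene, never between genes. On these arrays Il9 read 4.82 in Tc1 and 8.45 in Tc9, Ifng read 9.28 and 7.57, and Tbx21 read 9.56 and 6.50, with Il9 higher in Tc9 and both type 1 genes higher in Tc1. Cd8a read 12.19 and 11.93 and Cd3e 12.92 and 12.80, and Cd4 was also detectable, at 9.33 and 8.74. In bulk RNA, fewer cells of a type and less RNA per cell cannot be told apart.

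Most of the secretion machinery had close to the same signal on both arrays, and the few members that stood apart were mostly Rab genes higher in Tc9. Of the 75 detectable members, 67 (89.3%) lay within 1.5-fold, against 85.4% of all detectable genes. At least 2-fold higher in Tc9 were 2 members, Rab37 and Rab33a, which is 2.67% of the members beside 2.62% of all 10147 detectable genes. Rab33a was dim on the Tc1 array, and with dim signals raised to the threshold the count was 1. None was 2-fold lower, where 2.79% of all detectable genes were. At 1.5-fold, 7 members (9.33%) were higher, beside 7.8% of all detectable genes, and 1 (1.33%) was lower, beside 6.78%. The shares of higher members thus lay near the background. When each difference was centred on genes of like signal, 6 members were higher and 2 lower, beside 7.02% and 7.17% of all detectable genes. The median difference of the detectable members was 0.15, against 0.05 over all detectable genes, and 49 of the 75 (65.3%) had the higher signal in Tc9, against 56.3%. Control probe sets with pos in their ID give a scale: of the 1158 that reached the threshold, 7.94% were higher in Tc9 by 1.5-fold or more and 2.68% lower, with a median of 0.11.

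**Figure D1:**
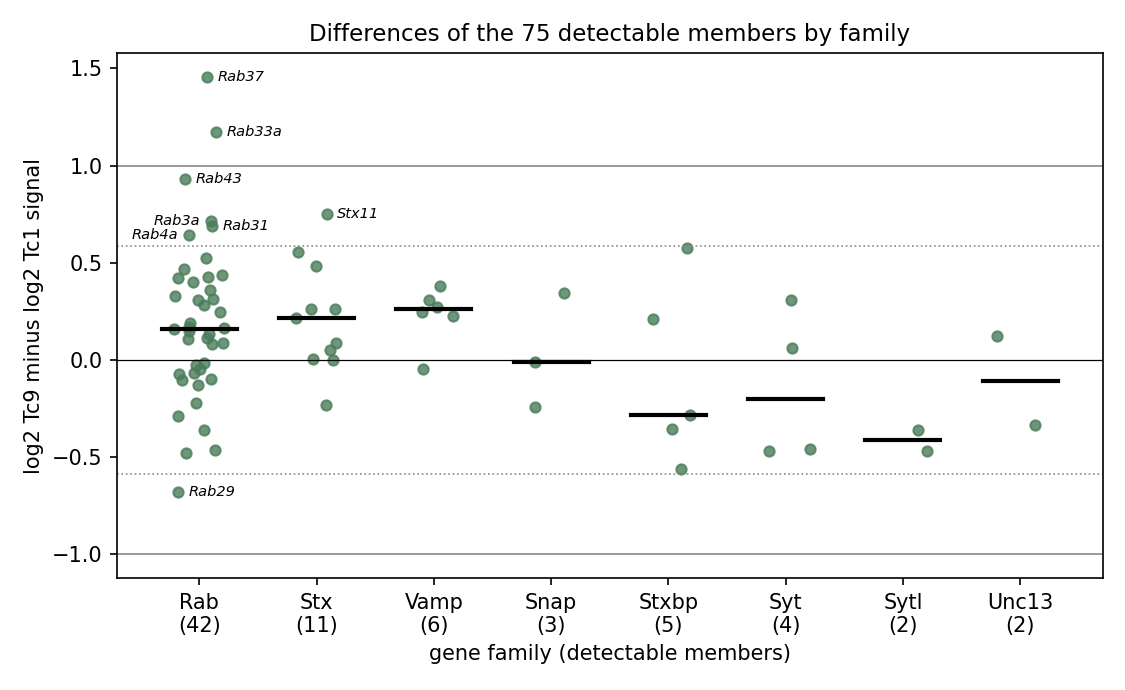
Difference in log2 signal, Tc9 minus Tc1, for each of the 75 detectable members, by gene family with the number of members in brackets. Each point is 1 gene on 1 pair of arrays, black bars are family medians, and grey lines mark 1.5-fold (dotted) and 2-fold (solid). The 8 genes past 1.5-fold are named. Rab37, at 1.46, lies highest and Rab29, at -0.68, lowest.

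Of the genes whose proteins dock, prime and fuse lytic granules, Rab27a, Unc13d and Stx11 each had the higher signal in Tc9. Rab27a, the GTPase on mature lytic granules, read 10.44 in Tc1 and 10.69 in Tc9, a difference of 0.24. Unc13d, which primes the granules, read 8.51 and 8.63. Stx11, the syntaxin that works in this fusion step, read 8.56 and 9.31, or 1.68-fold higher in Tc9. It was the only SNARE gene past 1.5-fold without further scaling and stood at rank 479 from the top of the 10147 detectable genes. After median centring Stx6 passed 1.5-fold too, at 0.62. Of the 18 measured genes in a list of lytic granule exocytosis factors, 16 were detectable, with a median of 0.23. Of these 11 (68.8%) had the higher signal in Tc9, against 56.3% of all detectable genes. Under other scalings 10 to 14 (62.5% to 87.5%) did, against 49.6% to 64.6%. Stxbp2, the Munc18 partner of syntaxin 11, read 10.84 and 11.05. Vamp8, the vesicle SNARE of lytic granules, read 8.27 and 8.65, and Vamp7, another one of late endosomes, 8.41 and 8.37. Snap23, the plasma membrane partner of these syntaxins, was level at 10.79 and 10.78. Going the other way were Sytl1, at 8.75 and 8.29, and Sytl3, at 7.62 and 7.26, both effectors that tether RAB27-bearing vesicles. These differences of -0.47 and -0.36 did not reach 1.5-fold. Their relative Sytl2, at 5.61 and 4.54, and the calcium sensor Syt7, at 6.21 and 5.67, were below the threshold on both arrays. In the same list Rab11a, which serves recycling endosomes, differed by 0.28 and Vamp2 by 0.27, Syt11 by 0.31 and Stx7 by 0.48. Rab7, the late endosome GTPase, differed by -0.016, and Stx8 by 0.0031.

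**Figure D2:**
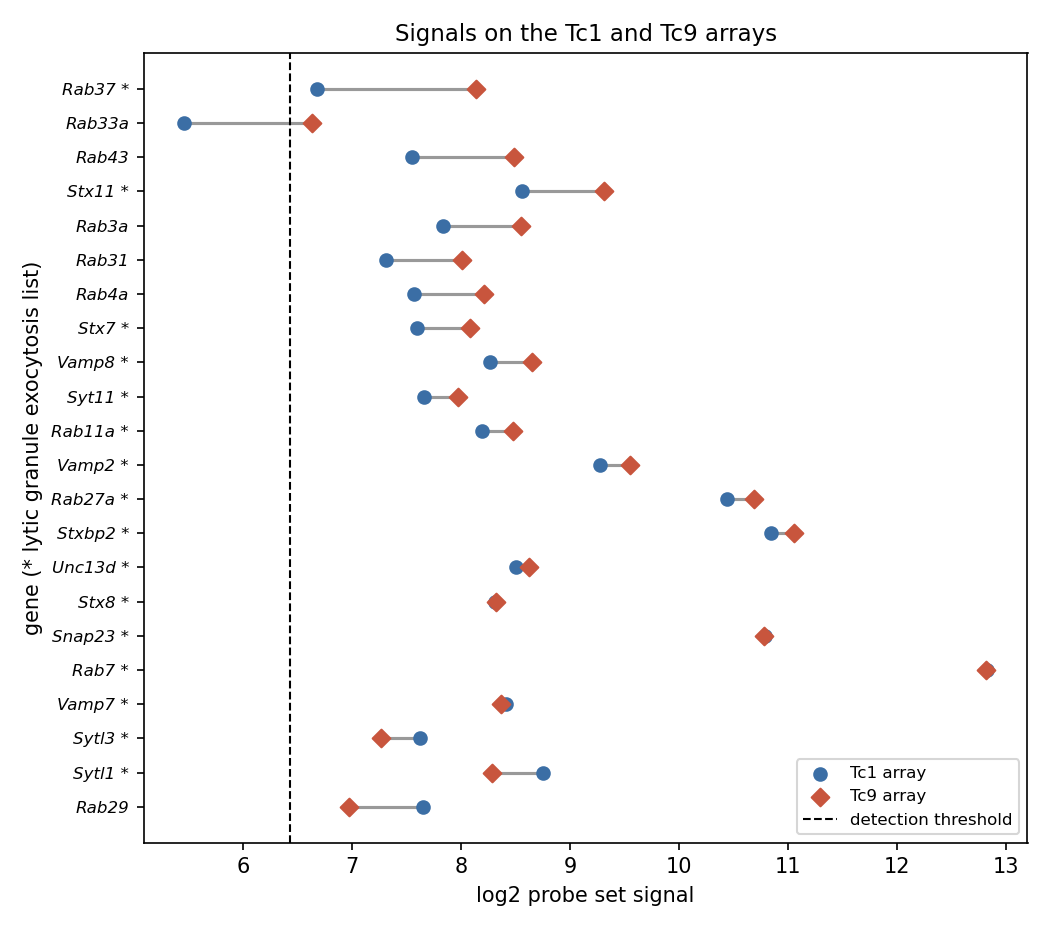
Log2 probe set signal on the Tc1 array (blue circles) and the Tc9 array (red diamonds) for the members past 1.5-fold and the detectable lytic granule exocytosis genes (asterisks), ordered by difference. Each symbol is 1 array. The dashed line is the detection threshold of 6.43. Rab33a is the only gene shown with a symbol left of it, on the Tc1 array.

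Some of the genes for the proteins that the granules carry had much lower signals in Tc9. In a list of lytic granule cargo and membrane genes, 14 of 16 were detectable. Of these, 5 (35.7%) were at least 2-fold lower in Tc9, beside 2.79% of all detectable genes. This list was written with earlier results of these data known. None was higher by 1.5-fold, except that 1 passed it after median centring. Gzmb, which encodes granzyme B, read 13.47 and 11.88, Prf1, which encodes perforin, 8.39 and 7.12, and Nkg7, a granule membrane protein, 11.90 and 10.67. Fasl, a death ligand that can be stored in such granules, read 8.06 and 6.56. Gzmc, another granzyme, read 8.43 and 5.22, the latter below the threshold. The Tc9 signals of Prf1, Fasl and Gzmc lay below 7.16, the 95th percentile of the negative control probe sets, for which no bound was computed. Not among these 5 was Gzma, another granzyme gene, which read 9.74 and 9.86, nor were Lamp1, Cd63 and Srgn. Lamp1, whose protein is used to detect degranulation, differed by 0.24, Cd63 by 0.52 and Srgn, the proteoglycan core, by 0.08. The median of the 14 genes was 0.09, above 0, since 9 of them lay within 1.5-fold. None of the 16 detectable exocytosis factors was 1.5-fold lower, beside 6.78% of all detectable genes. Whether the cargo and the exocytosis genes differ from each other was not tested, since there is 1 array per group.

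**Figure D3:**
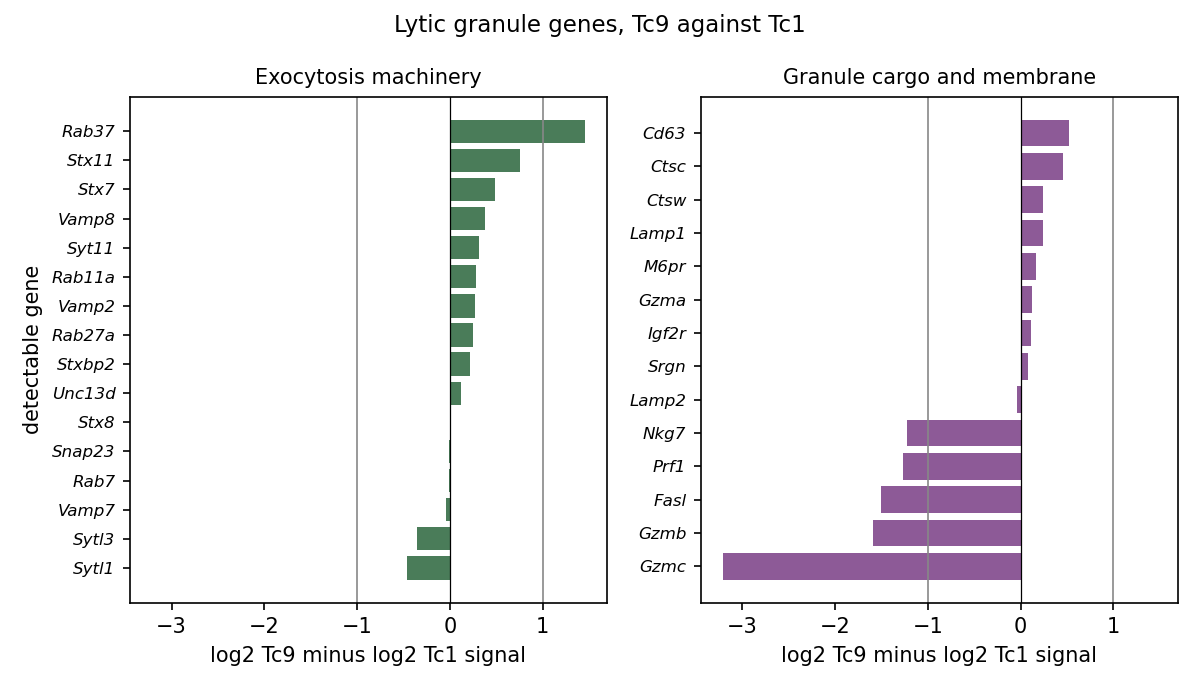
Difference in log2 signal, Tc9 minus Tc1, for the detectable lytic granule genes: exocytosis factors on the left, cargo and granule membrane proteins on the right. Bars start at 0, each bar is 1 gene on 1 pair of arrays, and grey lines mark 2-fold. Bars on the left run from -0.47 (Sytl1) to 1.46 (Rab37). On the right, Nkg7, Prf1, Fasl, Gzmb and Gzmc pass 2-fold toward Tc1.

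Sequences upstream of the annotated start are shown for Rab27a and Stx11, as the lytic granule genes. Sequences of Rab33a, which was dim on the Tc1 array, and Rab29 are shown as members past 1.5-fold in opposite directions. They are the 140 bases before the start in RefSeq (GRCm38.p6), read 5′ to 3′ on the gene's strand. Capitals mark matches to the searched motifs. Rab27a lies at chr9:73044670-73044809 on the plus strand (the first of 2 windows), Stx11 at chr10:12964260-12964399 on the minus strand, Rab33a at chrX:48519145-48519284 on the plus strand and Rab29 at chr1:131867137-131867276 on the plus strand.
Rab27a: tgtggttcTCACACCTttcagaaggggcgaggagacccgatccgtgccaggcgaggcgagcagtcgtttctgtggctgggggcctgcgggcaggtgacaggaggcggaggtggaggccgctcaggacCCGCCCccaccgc
Stx11: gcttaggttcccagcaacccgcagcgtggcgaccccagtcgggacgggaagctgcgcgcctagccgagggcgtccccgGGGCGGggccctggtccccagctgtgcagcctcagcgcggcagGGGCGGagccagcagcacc
Rab33a: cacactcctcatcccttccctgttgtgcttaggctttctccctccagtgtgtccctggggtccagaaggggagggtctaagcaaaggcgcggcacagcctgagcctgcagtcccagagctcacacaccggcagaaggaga
Rab29: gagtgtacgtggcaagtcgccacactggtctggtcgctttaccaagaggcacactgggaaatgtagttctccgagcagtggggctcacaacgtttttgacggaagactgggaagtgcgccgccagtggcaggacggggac

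The 250 bases before each start were searched on both strands for 6 motifs. These were a STAT6 site (TTC and GAA with 4 bases between), the SMAD element CAGACA, the T-box site AGGTGTGA, the E-box CACGTG, the GC box GGGCGG and the TATA box TATAAA. Each motif was counted separately, so matches may overlap. The Rab27a window shown holds a T-box match, 132 to 125 bases before the start, and a GC box. The other Rab27a window holds a SMAD match and a CACGTG match. Tbx21, which encodes the T-box factor T-bet, read 8.30-fold lower in Tc9 and Rab27a 1.18-fold higher. Any link between these genes was not tested. A T-box match occurs in 1.12% of all 32851 RefSeq windows, in 0.722% of the windows of all detectable genes, and in 1 of the 76 windows of detectable members. The Stx11 window holds GC boxes only, and the windows of Rab33a and Rab29 hold no match. Rab3a, Rab31 and Rab43, also past 1.5-fold but not shown, each have a window with a GC box and no match to the other motifs. Of the windows of detectable members, 64.5% hold a GC box, against 57.4% of the windows of all detectable genes and 32.7% of all windows. Their median GC content was 61.4%, against 59.6% for all detectable genes, and 2.63% hold a TATA box, against 6.55%. STAT6 matches were in 6.58% of the windows of detectable members, against 4.57% for all detectable genes and 5.85% of all windows. SMAD matches were in 13.2%, against 13.4% and 17.1%, and CACGTG in 10.5%, against 8.34% and 6.02%. Windows were found for 92 of the 113 members. A match is a sequence description, and these letters say nothing of whether a factor binds.

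Rab genes of secretory granules and related organelles ran from -0.48 to 1.46, with 5 of 10 measured genes detectable. Rab37, a GTPase of secretory granules first studied in mast cells, read 6.68 in Tc1 and 8.13 in Tc9. It was 2.74-fold higher in Tc9, the largest difference among the members and rank 130 from the top of the 10147 detectable genes. Its Tc1 signal lay just above the threshold of 6.43 but below 7.16, the 95th percentile of the negative control probe sets, and with that value as the lower bound it was at least 1.97-fold higher. Rab3a, a GTPase of synaptic and secretory vesicles, read 7.83 and 8.55, or 1.64-fold higher. Its relative Rab3d, found on granules of exocrine and immune cells, differed by 0.09. Rab26, another vesicle GTPase, read 6.73 and 6.25, lower in Tc9 by at least 1.23-fold against the threshold. Both Rab26 signals lay below 7.16, so that value gives no bound. Rab27b, the second RAB27 gene, read 6.37 and 6.39, just under the threshold on both arrays. Markers of mast cells and basophils, which are rich in RAB37 and RAB27B, were below the threshold on both arrays for all 6 genes measured, among them Cpa3, Fcer1a and Ms4a2. Their summed signal was 312 in Tc1 and 233 in Tc9, made up only of signals below the threshold, which give no fold. The part of such cells in the Rab37 difference was not tested.

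Rab genes of the endoplasmic reticulum and Golgi were mostly somewhat higher in Tc9, 11 of 14 detectable members (78.6%) under each scaling tried, with a median of 0.16. Of all detectable genes 56.3% were higher, and 49.6% to 64.6% under other scalings. Rab43, which acts in transport between the endoplasmic reticulum and the Golgi, read 7.55 and 8.48, or 1.90-fold higher, at rank 309. Rab33a, a relative of the Golgi GTPase RAB33B, read 5.46 and 6.63. Its Tc1 signal lay below the threshold, so against the threshold it was at least 1.15-fold higher although the measured values are 2.25-fold apart. Both of its signals lay below the negative control percentile of 7.16, which gives no lower bound. Rab1a and Rab1b, which carry vesicles from the endoplasmic reticulum to the Golgi, differed by 0.31 and 0.44, with Rab1b dim on the Tc1 array. Rab2a and Rab2b, which act on the same route, differed by 0.16 and 0.40, and Rab19 by 0.47. Rab6a, Rab6b, Rab18, Rab34, Rab33b, Rab40b and Rab40c lay between -0.10 and 0.15. Rab29, which sits at the trans-Golgi and lysosomes and recruits the kinase LRRK2, is not counted among these 14 genes. It was the detectable member with the lowest difference. It read 7.65 and 6.97, or 1.60-fold lower in Tc9, at rank 548 from the bottom of the detectable genes. Its Tc9 signal lay below the negative control percentile of 7.16, and against that value it was at least 1.41-fold lower, short of 1.5-fold.

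Rab genes of early and recycling endosomes went both ways, with 10 of 17 detectable members (58.8%) higher in Tc9 and a median of 0.17. The share among all detectable genes was close, at 56.3%. After median centring 12 of 16 were higher, against 64.6% of all detectable genes, and after quantile normalization 10 of 16, against 53.1%. When centred on genes of like signal, 10 of 17 were, against 49.6%. Rab31, a RAB5 relative of endosomes and the trans-Golgi, read 7.31 and 8.0, or 1.61-fold higher. Rab4a, which returns receptors quickly from early endosomes to the surface, read 7.56 and 8.21, or 1.56-fold higher. Rab31 and Rab4a passed 1.5-fold by little, and both fell short of it with an offset of 50 added to the signals. Rab4a fell short of it also when centred on genes of like signal. Rab14, which links endosomes and the trans-Golgi, was the lowest of these genes, at 10.47 and 10.01. Rab11b and Rab8b, which serve recycling and outward traffic, differed by 0.42 and 0.43, Rab35 by 0.31, Rab10 by 0.17, Rab22a by 0.14, Rab12 by -0.02 and Rab21 by -0.13. Rab17 and Rab20 were at or just over the threshold on the Tc1 array and below it on the Tc9 array. Of the late endosome and autophagy genes, Rab9 differed by 0.33 and Rab24 by 0.36. Rab23 and Rab28, linked to cilia, differed by 0.16 and -0.10.

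Rab genes that share a number encode close relatives, and some of them differed between cultures to unlike extents. The RAB5 genes, which define early endosomes, spanned the largest gap among those detectable on both arrays: Rab5a read 10.88 and 10.52, Rab5b 7.52 and 8.04, and Rab5c 10.13 and 10.32. Their differences of -0.36, 0.52 and 0.19 lay 0.89 apart, so Rab5a was lower in Tc9 while Rab5b and Rab5c were higher. Rab3a and Rab3d lay 0.63 apart and Rab8a and Rab8b 0.47 apart, with Rab8a level at 11.94 and 11.89. The directions of the RAB5 genes were the same under each scaling tried. Rab11a and Rab11b lay 0.14 apart and Rab1a and Rab1b 0.13. The gap of 1.03 between Rab33a and Rab33b rests on the dim Tc1 signal of Rab33a. Whether probes of such relatives are fully specific was not tested.

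**Figure D4:**
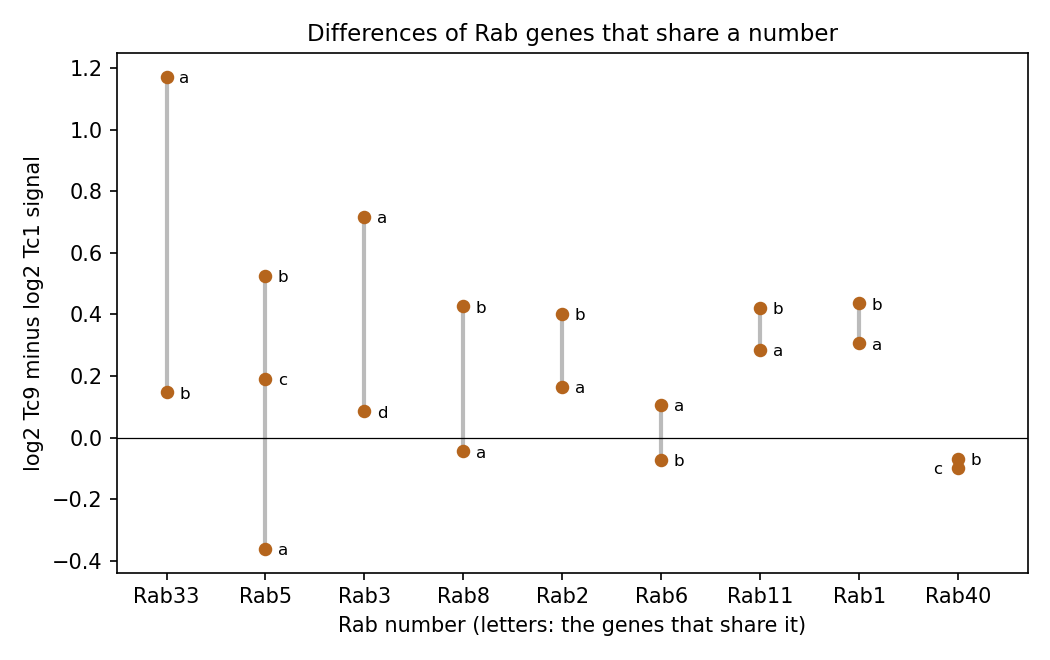
Difference in log2 signal, Tc9 minus Tc1, for detectable Rab genes that share a number, with letters naming the genes. Each point is 1 gene on 1 pair of arrays, grey lines join genes of 1 number, and numbers are ordered by the gap between them. Rab5a lies at -0.36 and Rab5b at 0.52, on opposite sides of 0.

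SNARE genes were mostly higher in Tc9, by small amounts. Of the 20 detectable Stx, Vamp and Snap genes, 16 (80.0%) were higher in Tc9, against 56.3% of all detectable genes. Under other scalings 14 to 18 (70.0% to 90.0%) were, against 49.6% to 64.6%. The median of the 20 was 0.24, beside 0.05 over all detectable genes and 0.11 over the control probe sets with pos in their ID, and 19 lay within 1.5-fold. Besides Stx11, the syntaxins with the largest differences were Stx6, of the trans-Golgi, at 9.99 and 10.55, and Stx7, of late endosomes, at 7.60 and 8.08. Stx4a (syntaxin 4) and Stx2, which act at the plasma membrane, differed by 0.26 and 0.22, Stx17, the syntaxin of autophagosomes, by 0.26, Stx12 by 0.09, Stx18, of the endoplasmic reticulum, by 0.05, and Stx1a by less than 0.01. Stx16, the trans-Golgi partner of syntaxin 6, was the detectable syntaxin with the lowest difference, at 9.03 and 8.80. It was lower in Tc9 under each scaling, while Stx8 turned below 0 after quantile normalization and Stx8 and Stx18 did when centred on genes of like signal. Of the VAMP genes, the vesicle-side SNAREs, Vamp1, Vamp2, Vamp3, Vamp4 and Vamp8 differed by 0.23 to 0.38, and Vamp7 by -0.04. Snap47 differed by 0.35 and Snap29, which fuses autophagosomes with syntaxin 17, by -0.24.

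Partners in a known fusion complex could have unlike differences. In the complex of syntaxins 7 and 8 with VTI1B and VAMP8, which fuses late endosomes, Stx7, Vti1b and Vamp8 differed by 0.48, 0.43 and 0.38, and Stx8 by 0.0031. In the trans-Golgi complex, Stx6 and Vamp4 differed by 0.55 and 0.25 but Stx16 and Vti1a by -0.23 and -0.19. In the autophagosome complex, Stx17 and Vamp8 were higher while Snap29 was lower. These complexes were written down after the values were seen.

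Genes for regulators of SNARE assembly lay between -0.56 and 0.58. Stxbp5, which encodes tomosyn, an inhibitor of SNARE assembly, read 8.11 and 8.69, and passed 1.5-fold toward Tc9 after median centring, at 0.65. Stxbp3, the Munc18 protein that binds syntaxin 4, read 8.16 and 7.60, the lowest of this family. It passed 1.5-fold toward Tc1 after quantile normalization, at -0.61, and when centred on genes of like signal, at -0.63. Stxbp3-ps, a pseudogene copy, read 8.54 and 8.26, and the probes may not separate the signals of their near-identical sequences. Stxbp4 differed by -0.35. The remaining detectable synaptotagmin and Munc13 genes were Syt12, at -0.46, Syt15, at -0.47, Syt3, at 0.06, and Unc13a, which primes synaptic vesicles, at -0.33.

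The 38 members below the threshold on both arrays included many genes best known from neurons, epithelia and endocrine cells. They were 14 Rab genes (Rab3b, Rab3c, Rab7b, Rab9b, Rab13, Rab15, Rab25, Rab27b, Rab30, Rab32, Rab38, Rab39, Rab39b and Rab42) and 12 of the 16 synaptotagmins (Syt1, Syt2, Syt4, Syt6, Syt7, Syt8, Syt9, Syt10, Syt13, Syt14, Syt16 and Syt17). The others were Sytl2, Sytl4, Sytl5, Unc13b, Unc13c, Stx3, Stx19, Vamp5, Snap25, Snap91, Stxbp5l and Stxbp6. Snap91 encodes a clathrin assembly protein and shares only its name with the SNAREs. Their signals give no fold. Their differences were below 0 for 27 of 38 (71.1%), with a median of -0.25, against 55.7% and -0.05 for all genes below the threshold. Negative control probe sets were compared only where they reached the threshold, which 585 of 5222 did, unlike these members. Of the 585, 199 were lower in Tc9 by 1.5-fold or more and 48 higher, with a median of -0.37. Whether the dim members share this shift was not tested.

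Among the genes for proteins that switch Rab GTPases on and off, Dennd4a had a difference of -1.62, larger in size than that of any detectable member. Of 25 detectable genes of Rab prenylation, recycling and exchange, 2 (8%) were higher by 1.5-fold or more in Tc9 and 2 (8%) lower. Of all detectable genes 7.8% were higher and 6.78% lower. The median of the 25 was -0.08. Dennd4a, an exchange factor for RAB10, read 10.45 and 8.83, or 3.07-fold lower in Tc9, and was the one gene of these that passed 2-fold. Rab10 itself differed by 0.17. Of 28 detectable Rab GTPase-activating proteins, 3 (10.7%) passed 1.5-fold toward Tc9, beside the same 7.8%, and the median was 0.15. None passed it toward Tc1, but 1 did after quantile normalization or centring on genes of like signal. Tbc1d30 read 6.13 and 7.79, at least 2.56-fold higher against the threshold. Its Tc1 signal also lay below the negative control percentile of 7.16, for which no bound was computed. Tbc1d4, which restrains the surface delivery of glucose transporters, read 8.40 and 9.43, or 2.03-fold higher, a value that fell below 2-fold after quantile normalization, with the offset or when centred on genes of like signal. Among 19 detectable Rab effectors the median was -0.03, which turned to 0.04 after median centring. Of these, 2 (10.5%) passed 1.5-fold toward Tc9, again beside 7.8%. These were Rab11fip1, at 6.71 and 7.70, and Rab11fip4, at 6.92 and 7.91, both of which bind RAB11 on recycling endosomes. Their folds of 1.99 stood just under 2-fold, and both passed it after median centring. The Tc1 signals of both lay below the negative control percentile of 7.16.

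The remaining parts of the secretory route differed little. Of all detectable genes, 85.4% lay within 1.5-fold, 7.8% were higher in Tc9 by at least that and 6.78% lower. None of the 21 detectable SNARE genes and recycling factors outside the member rule passed 1.5-fold, and their median was 0.09. Of the 9 exocyst genes, which tether vesicles at the plasma membrane, 8 lay within 1.5-fold, and Exoc3 was 1.61-fold higher in Tc9. Of 23 detectable genes that build lysosome-related organelles, 2 (8.70%) were higher by 1.5-fold or more, Hps1 at 1.67-fold and Bloc1s5 at 1.75-fold. The Tc1 signals of both lay below the negative control percentile of 7.16, for which no bound was computed. None of the 23 was 1.5-fold lower, and the median was -0.0095, or 0.06 after median centring. None of 7 detectable genes among other exocytosis factors passed 1.5-fold, with a median of 0.18.

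Markers of other cells in the cultures were read on the same arrays. All 9 measured B cell markers were detectable and lower in Tc9, with a summed signal of 5002 in Tc1 and 3607 in Tc9. Of 9 monocyte and macrophage markers 4 were detectable, with sums of 1062 and 1085. These 4 went both ways, with Fcgr3 and Itgam at -0.87 and -0.19, and Lyz2 and C1qb at 0.43 and 0.51. Of 7 dendritic cell markers 2 were detectable, with sums of 2422 and 1855. H2-Aa, at 11.10 and 10.68, made up most of these sums. The other, Zbtb46, read 6.84 and 5.58, the latter below the threshold. Platelet markers were detectable for 3 of 4, with sums of 465 and 370. Neutrophil markers were detectable for 1 of 4, Elane, which read 6.48 and 5.84. Their sums of 160 and 234 were higher in Tc9 through S100a8 and S100a9, both below the threshold on both arrays. NK cell markers were detectable for none of 3, with sums of 130 and 50.8. All these sums include markers below the threshold, whose signals give no fold. The 5 CD8 T cell markers were all detectable, with sums of 22242 and 19464. Rab31 and Stx11 are known from myeloid cells too, and the part of such cells in their differences was not tested.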

How the data were processed

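The deposited table holds linear probe set intensities of 2 arrays. Per the labels' protocols, Trizol was used to extract total RNA, which was biotin-labelled by a whole-transcript sense method. How the authors corrected background, summarized probes and normalized is not given in the labels. Median intensities were 57.2 (Tc1) and 53.1 (Tc9), so log2 of the deposited intensities was used without further scaling. Of 28846 probe sets, 19572 had 1 gene symbol, 0 had several and 9274 had none. For genes with several probe sets, the brighter was used. Each member had 1 probe set, and all 113 matched RefSeq (GRCm38.p6) by Entrez number. A further 7 RefSeq symbols that match the rule were not analysed here. The platform names no build, so gene coordinates are not given, and promoter windows are RefSeq's.

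The members, gene lists and thresholds were chosen with earlier results of these data known. Members past 1.5-fold and the lytic granule genes were named with both signals, the others by family. Genes outside the rule were named from written lists where they passed 2-fold or were among the 4 largest differences of a list with none past it, besides control genes such as Il9 and Lamp1. Cd63, Srgn, Gzma, Vti1a, Vti1b and the marker genes were picked for mention with their values in view. Where a gene was dim on 1 array, its fold is a lower bound, computed against the threshold itself. The number of arrays limits the precision. The counting code was tested on simulated data. Python 3.11.15, numpy 2.4.6, pandas 2.3.3 and matplotlib 3.10.9 were used. Alternatives changed the scaling, the threshold, dim values, an offset and the choice of probe set.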

Additional observations from a re-analysis of the deposited data

How the results depend on the processing

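Each count and the median of the members was recomputed under 9 alternatives, of which centring on genes of like signal (within 0.5 of the mean log2 signal) and leaving out Stxbp3 and Stxbp3-ps were chosen after seeing the data. The count of members at least 2-fold higher was 1, in place of 2, with the 95th percentile of negative controls as the threshold, with dim signals raised to the threshold and with an offset of 50, because Rab33a dropped out. The count at least 2-fold lower was 1, in place of 0, without a threshold. The count at least 1.5-fold lower was 1, and became 2 after quantile normalization and after centring on genes of like signal, 10 without a threshold and 0 with the offset. The median of 0.15 became 0.22 after median centring, which moved all differences by 0.07, and 0.047 without a threshold, where dim genes enter. The count at least 1.5-fold higher stayed between 5 and 10. Of the 8 members past 1.5-fold, all kept their direction wherever they were measured. Rab3a, Rab43, Stx11 and Rab37 stayed past 1.5-fold under all 8 alternatives run on single genes. Each of these genes had 1 probe set and signals above the threshold on both arrays. Changes of threshold, dim values or probe set choice therefore could not move their differences, and only the scalings and the offset could. No replicate could be left out, and no paired analysis was possible because each group has 1 array. Depth limits do not apply to array signals, but 5 members were dim on 1 array and 38 on both.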
